A study of Mus musculus with 18 samples.

Results

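Glucose carbon enters a cell through facilitative transporters, is cut to pyruvate by the enzymes of glycolysis, and then either leaves as lactate or enters the mitochondrion. The 35 genes described here cover that route in mouse pluripotent cells: 2 glucose transporters, the enzymes from hexokinase to lactate dehydrogenase, the 4 PFKFB genes that set the level of the glycolytic activator fructose 2,6-bisphosphate, 2 lactate transporters, the pyruvate dehydrogenase kinases, 3 subunits of the pyruvate dehydrogenase complex and the 2 subunits of the mitochondrial pyruvate carrier. They were taken from the deposited count table by gene symbol. All 35 were among its 25239 symbols, and all 35 were among the 17545 that passed the filter on low counts.

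The study followed mouse primed stem cells as they were converted to a naive state. EpiSC are the primed cells at day 0, D3, D5 and D8 are cells at 3, 5 and 8 days that the labels call transient, rES are the naive cells obtained at the end, and ESC are mouse embryonic stem cells labelled naive, the reference. Each of the 6 groups had 3 libraries. The labels name no strain, genotype, clone, culture medium or feeder layer for any group, and they do not say whether the replicates were separate cultures, so p-values here measure only the spread between these samples, which may be technical. Library totals were 58.4 to 101.6 M counts, the deepest being D8 replicate 2. Levels are given as CPM, the count of a gene relative to its library's TMM-scaled total on the usual per-M basis, and a level is divided by exon length in kilobases wherever genes are compared with one another.

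The labels were checked against marker genes. The summed level of 8 naive markers averaged 60.8 CPM in EpiSC, where Zfp42 and Nr0b1 had no counts, against 3970 in rES and 4228 in ESC. The 6 primed markers averaged 2032 CPM in EpiSC and 235.5 or less in every other group. The summed levels of marker genes of other cell types were higher at D3, D5 and D8 than in EpiSC. The 8 trophoblast markers averaged 1339, 853.5 and 725 CPM against 15.7 in EpiSC, where Cdx2 had no counts, and the 7 fibroblast markers averaged 501, 825 and 1286 CPM against 36.9 in EpiSC, 140.7 in ESC and 5.73 in rES, where Dcn had none. The 5 embryonic erythroid markers averaged 2.45, 250 and 83.7 CPM at D3, D5 and D8 against 0.226 in EpiSC. Not every marker followed its sum. At D5 and at D8, 1 of the 8 trophoblast and 1 of the 7 fibroblast markers was lower than in EpiSC by at least 2-fold. The other trophoblast and fibroblast markers were higher at both days. In bulk RNA, fewer cells of a type and less RNA per cell cannot be told apart, nor can other cells present be told apart from such genes being expressed by the converting cells. The part of these markers' RNA in the values of any group was not tested. The 3 D8 libraries differed from one another: the naive marker sum was 885, 1079 and 1585 CPM in replicates 1, 2 and 3.

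Glycolysis runs in 10 steps whose irreversible ones are catalysed by hexokinase, phosphofructokinase and pyruvate kinase. Most steps have several isozymes encoded by separate genes, which differ in tissue distribution and regulation. Lactate dehydrogenase reduces pyruvate to lactate, and pyruvate dehydrogenase, which the PDK kinases inhibit by phosphorylation, oxidises it to acetyl-CoA inside the mitochondrion. Primed cells are known for relying largely on glycolysis, while naive mouse cells use both glycolysis and respiration.

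Transcripts of the pathway were most abundant in EpiSC. The 35 genes together made up 1.85% of all counts in EpiSC, with a summed level of 18680 ± 866 CPM (SD, n = 3), and between 0.865% and 0.991% in the other groups. The 18 enzymes from hexokinase to lactate dehydrogenase alone summed to 15620 ± 733 CPM in EpiSC, 7072 ± 768 at D3, 5158 ± 274 at D5, 4688 ± 214 at D8, 6034 ± 73.3 in rES and 6097 ± 138 in ESC. The lowest EpiSC library, at 14970 CPM, lay above the highest library of any other group, at 7808 CPM at D3. The sum over all 35 genes did not follow that course between D3 and D8: it was 9588, 9253 and 10000 CPM at D3, D5 and D8, with the glucose transporter Slc2a1 alone at 783, 2436 and 3186 CPM.

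**Figure D1:**
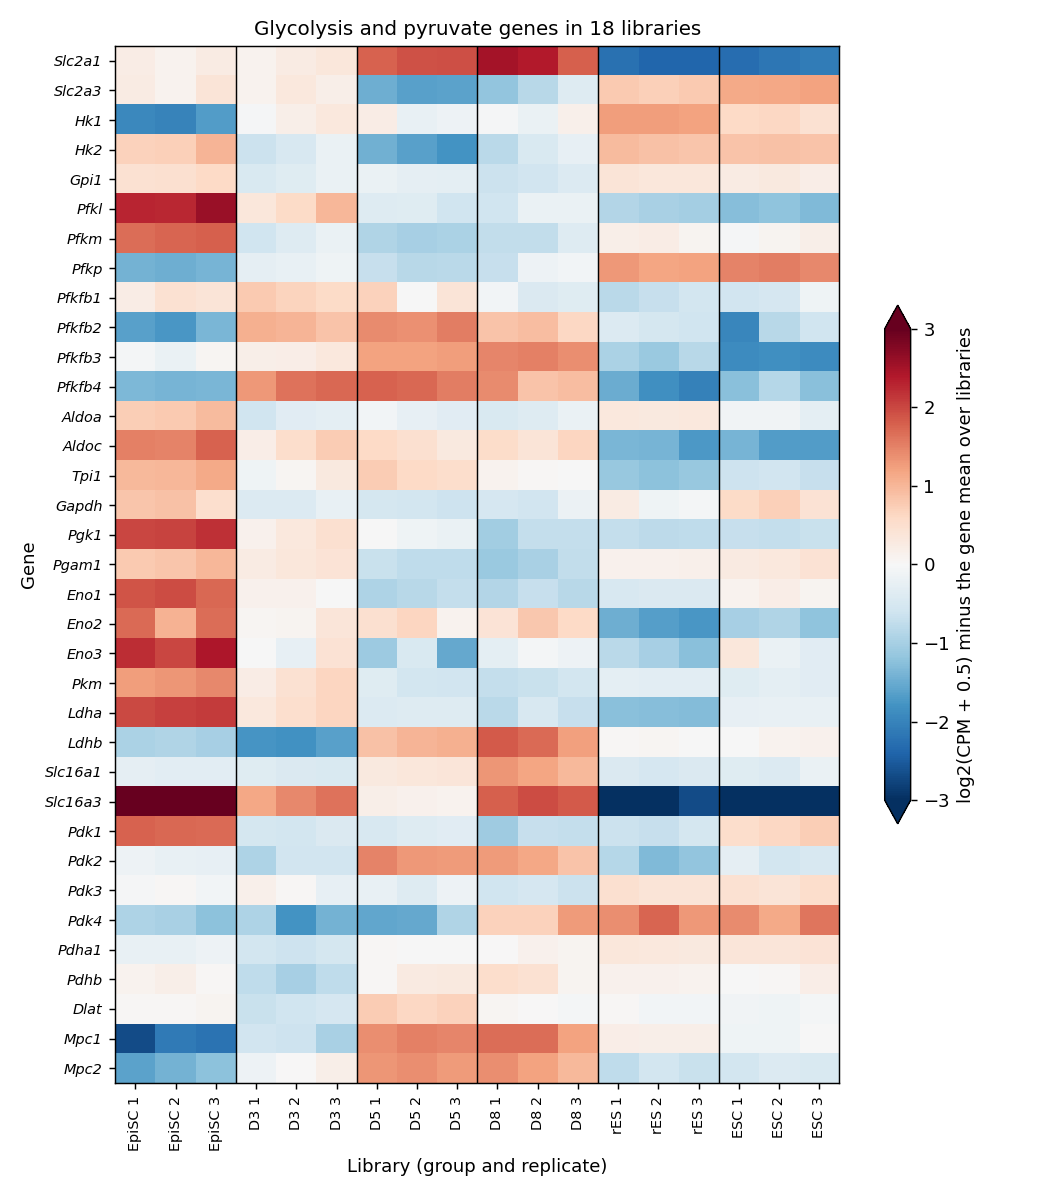
Each row is a gene in pathway order and each column a library, with 3 libraries per group; colour is log2(CPM + 0.5) minus the mean of the gene over the 18 libraries. Aldolase to lactate dehydrogenase A is mostly red in the 3 EpiSC columns, the Slc2a1, Pfkfb3, Ldhb and Mpc rows are reddest at D5 and D8, and Hk1 and Pfkp are red in rES and ESC.

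Against EpiSC, each of the 5 other groups had more of the 35 genes lower than higher. In ESC, 10 were higher and 19 lower, with 67.3% of all tested genes called in either direction, 31.2% higher and 36.1% lower. At D3, 7 were higher and 22 lower, where 64.2% of all genes were called, 34.1% higher and 30.2% lower. At D5 the counts were 13 and 19, against 72% of all genes called, 37.7% higher and 34.3% lower. At D8 they were 14 and 20, against 76.8%, 42.4% and 34.5%. In rES they were 10 and 20, against 69.4%, 31.9% and 37.5%. The share of members called lower was thus 54.3 to 62.9% where the background was 30.2 to 37.5%, while the share called higher was 20 to 40% where the background was 31.2 to 42.4%. The median log2 difference of the members was -0.27 in ESC, -0.78 at D3, -0.48 at D5, -0.996 at D8 and -0.72 in rES, beside medians over all genes of -0.07, 0.00, 0.02, 0.18 and -0.09. Lower by at least 2-fold were 14 of the 35 in ESC (20.2% of all genes), 13 at D3 (13.9%), 16 at D5 (21.1%), 17 at D8 (20.6%) and 15 in rES (21.5%). All 5 comparisons use the same 3 EpiSC libraries. A difference was called at an adjusted p under 0.05 in edgeR's quasi-likelihood test. Throughout, log2 differences are given ± their approximate standard error, and levels and shares as mean ± SD over 3 libraries.

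Those totals hide a split by gene. Lower in all 5 comparisons were 14 genes: Pfkl, Pfkm, Aldoa, Aldoc, Tpi1, Pgk1, Pgam1, Eno1, Eno2, Eno3, Pkm, Ldha, Slc16a3 and Pdk1. Of these, 9 were lower by at least 2-fold in all 5, namely Pfkl, Pfkm, Aldoc, Pgk1, Eno1, Eno3, Ldha, Slc16a3 and Pdk1. Higher in all 5 were Hk1, Pfkp, Pfkfb2, Mpc1 and Mpc2, although the call of Pfkfb2 in ESC was lost when ESC and EpiSC were fitted alone (adjusted p = 0.0566) and without ESC replicate 2 or 3 or EpiSC replicate 1 or 2 (adjusted p of 0.0754 to 0.237), with a log2 difference of 0.31 without ESC replicate 3. EpiSC had the highest group mean for 16 genes, D8 for 6, D5 for 5, ESC for 4, rES for 3 and D3 for 1. Of the remaining 16, 10 were called higher in some comparisons and lower in others, namely Slc2a1, Slc2a3, Pfkfb3, Pfkfb4, Ldhb, Pdk2, Pdk3, Pdha1, Pdhb and Dlat. Hk2, Gpi1, Pfkfb1 and Gapdh were called lower in some and higher in none, and Slc16a1 and Pdk4 higher in some and lower in none. For Pfkfb4 the lower call, in rES, was lost under RLE scaling, DESeq2, counts divided by 4, the 2 groups fitted alone or without any 1 EpiSC library or rES replicate 2 or 3 (adjusted p of 0.061 to 0.25).

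**Figure D2:**
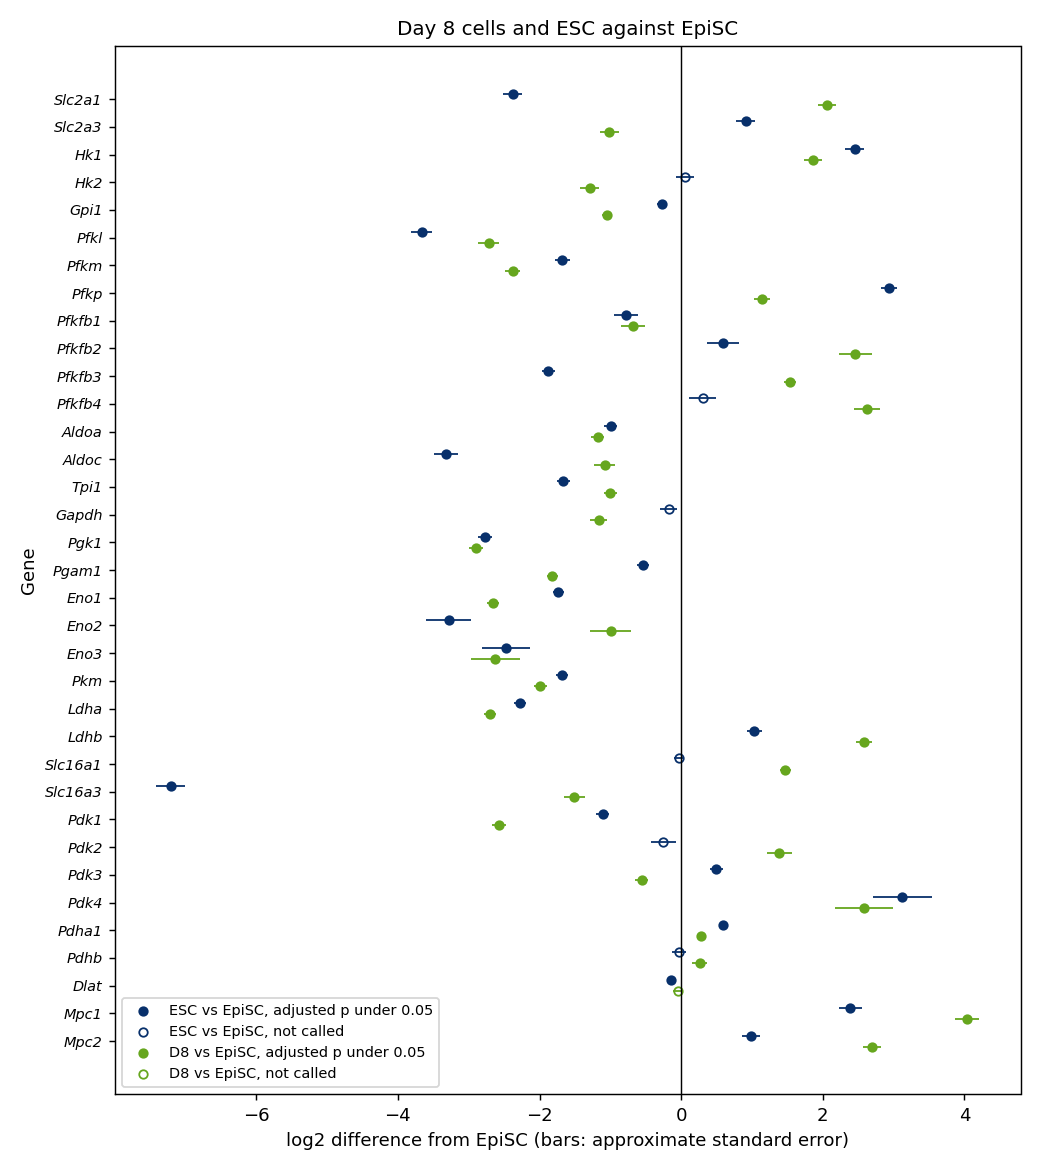
Log2 difference from EpiSC for each gene in ESC (dark blue) and at D8 (green); bars are approximate standard errors, filled points have an adjusted p under 0.05, and open points do not. Slc16a3 lies at -7.21 in ESC, Slc2a1 lies at -2.38 in ESC and 2.06 at D8, and Mpc1 lies at 4.04 at D8.

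The 2 glucose transporters differed from EpiSC in opposite directions at D5, at D8, in rES and in ESC. From D5 to D8 the group means of both rose. Slc2a1 encodes GLUT1, the widespread basal glucose transporter, and lies at chr4:119108711-119137983 on the plus strand on the mm10 assembly. Slc2a1 stood at 776, 718 and 792 CPM in EpiSC, 712, 788 and 849.6 at D3, 2277, 2497 and 2534 at D5, 3770, 3470 and 2320 at D8, 142, 128 and 128 in rES and 136, 148 and 154 in ESC. The D5 and D8 libraries lay above all others, D8 replicate 3 lay within the range of D5, and the rES and ESC libraries shared a low range. The log2 difference from EpiSC was 1.68 ± 0.13 (adjusted p = 1.03e-09) at D5, 2.06 ± 0.13 (adjusted p = 5.75e-11) at D8 and -2.38 ± 0.13 (adjusted p = 1.7e-11) in ESC. From D8 to rES the level went down 24-fold, a log2 difference of -4.58 ± 0.14 (adjusted p = 7.2e-15). D8 replicate 3, which had the highest naive marker sum of its group, also had the lowest Slc2a1 level of its group. The log2 difference between D8 and D5 was 0.39 ± 0.12, but that call was lost when D5 and D8 were fitted alone (adjusted p = 0.0638) or without D5 replicate 1, D8 replicate 1 or D8 replicate 2 (adjusted p = 0.0634, 0.105 and 0.0699).

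Slc2a3 encodes GLUT3, a transporter with a high affinity for glucose. The Slc2a3 libraries read 878, 788 and 955 CPM in EpiSC, 787, 909 and 828 at D3, 264, 238 and 242 at D5, 323, 413 and 561 at D8, 1266, 1211 and 1261 in rES and 1602, 1630 and 1702 in ESC. Its levels were lowest at D5 and highest in ESC, and EpiSC and D3 overlapped. The log2 difference was -1.82 ± 0.13 (adjusted p = 7.77e-10) at D5 and 0.91 ± 0.13 (adjusted p = 7.45e-06) in ESC. Per length, Slc2a1 made up 64.4% ± 1.1 (SD, n = 3) of the summed level of both genes in EpiSC, 95.3% ± 0.52 at D5, 93.4% ± 3.4 at D8, 18.1% ± 0.71 in rES and 15.5% ± 0.5 in ESC. Their summed level was 338 ± 22.4 CPM per kb in EpiSC, 968 ± 202 at D8 and 209.9 ± 5.72 in rES.

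**Figure D3:**
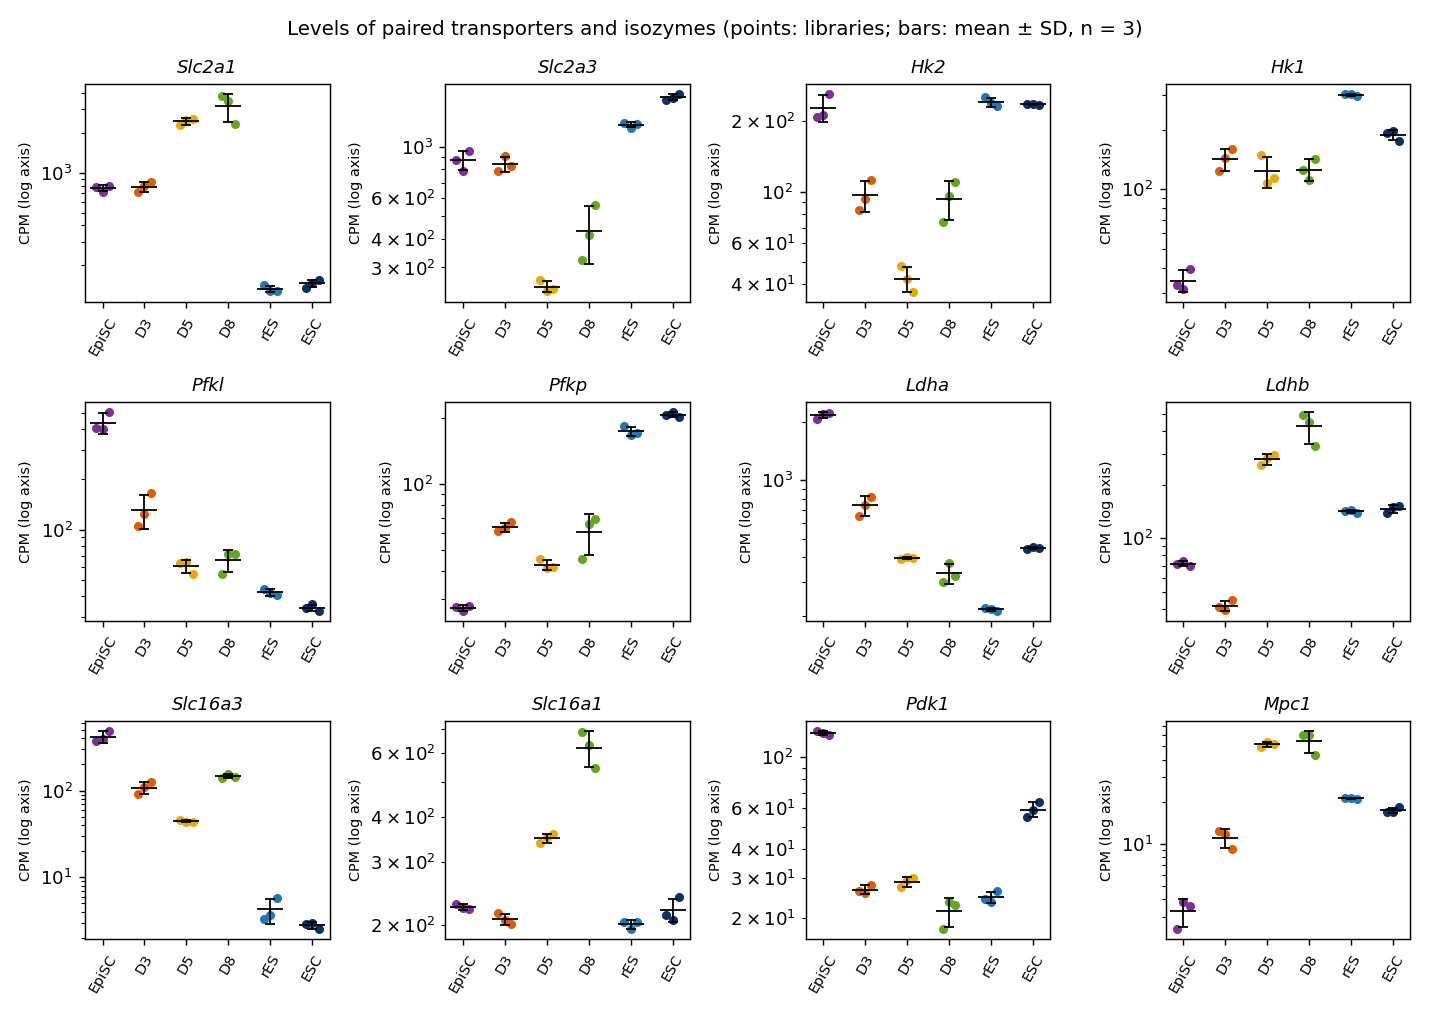
Level in CPM on a log axis for 12 genes in the 6 groups; points are libraries, and the black bars show the mean and SD of 3 libraries. Slc2a1, Ldhb, Slc16a1 and Mpc1 peak at D8 and are lower in rES, while Ldha and Slc16a3 are highest in EpiSC.

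Hexokinase traps glucose as glucose 6-phosphate. Hk1, the broadly expressed isozyme bound to mitochondria, was lowest in EpiSC. For Hk1, the 3 libraries of each group gave 32.7, 31.2 and 39.5 CPM in EpiSC, 123, 143 and 159.6 at D3, 149.5, 108 and 114 at D5, 124, 111 and 142 at D8, 304, 301 and 295 in rES and 193, 196 and 176 in ESC. The EpiSC libraries lay below all others and the rES libraries above all others, while D3, D5 and D8 overlapped. The log2 difference from EpiSC was 2.45 ± 0.13 (adjusted p = 1.3e-11) in ESC and 3.12 ± 0.13 (adjusted p = 5.82e-13) in rES. Hk2, the inducible isozyme, followed another course. By library, Hk2 was at 209, 213 and 263 CPM in EpiSC, 83.6, 93.2 and 112 at D3, 47.7, 42 and 37 at D5, 74.1, 95.4 and 110.3 at D8, 253, 239 and 232 in rES and 237, 238 and 236 in ESC. The D5 libraries were below all others, and EpiSC, rES and ESC overlapped. At D5 the log2 difference was -2.44 ± 0.14 (adjusted p = 2.17e-11). In ESC it was 0.05 ± 0.13 (adjusted p = 0.751), a difference not larger than the spread between libraries. Hk2 made up 90.4% ± 0.3 of the hexokinase level per length in EpiSC, 32.9% ± 2.5 at D5 and 64.3% ± 1.3 in ESC. Gpi1, which encodes the next enzyme, glucose-6-phosphate isomerase, averaged 762 ± 42.6 CPM in EpiSC, 368 ± 30.4 at D8 and 632 ± 21.7 in ESC.

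Phosphofructokinase, the committed step, is built from subunits encoded by Pfkl, Pfkm and Pfkp, named for liver, muscle and platelet. Values of Pfkl were 401, 397 and 503 CPM in EpiSC, 104, 123 and 164 at D3, 62.8, 63.7 and 54.3 at D5, 54.6, 71.6 and 71.6 at D8, 44.5, 41.9 and 40.6 in rES and 33.9, 35.7 and 32.8 in ESC. The EpiSC libraries lay above all others. Pfkm stood at 133, 139 and 144 CPM in EpiSC, 27, 31.1 and 35.4 at D3, 21.8, 20.2 and 20.9 at D5, 24.6, 24.4 and 31.1 at D8, 46.5, 47.7 and 43.7 in rES and 40.1, 43.2 and 46.4 in ESC. Here too EpiSC lay above every other library, and D5 had the lowest mean. The Pfkp libraries read 27.5, 26.4 and 27.9 CPM in EpiSC, 60.9, 62.9 and 67.1 at D3, 45.4, 41.2 and 42 at D5, 45.5, 66 and 69.5 at D8, 184, 168 and 172 in rES and 208, 214 and 202 in ESC. For Pfkp the order was turned round, with EpiSC at the bottom and ESC at the top. In ESC the log2 differences from EpiSC were -3.67 ± 0.15 (adjusted p = 4.8e-13) for Pfkl, -1.68 ± 0.10 (adjusted p = 1.03e-10) for Pfkm and 2.93 ± 0.12 (adjusted p = 2.29e-13) for Pfkp. Pfkl provided 59.8% ± 2.5 of the summed level per length in EpiSC and 15.2% ± 0.63 in ESC, whereas Pfkp provided 1.9% ± 0.14 and 46.2% ± 1.6. The sum of the 3 genes was 108 ± 10.3 CPM per kb in EpiSC and 33.6 ± 0.847 in ESC. Pfkp shares 17.1% of the 50-base stretches of its longest coding transcript with Pitrm1, which it overlaps on the opposite strand, so part of its counts is uncertain.

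The 4 PFKFB enzymes make and degrade fructose 2,6-bisphosphate, which activates phosphofructokinase, and all 4 of their genes had their highest mean in a transient group. For Pfkfb2, the 3 libraries of each group gave 6.66, 6.1 and 8.05 CPM in EpiSC, 45.6, 44.2 and 39.5 at D3, 58.9, 57 and 63.7 at D5, 39.4, 41.8 and 33.5 at D8, 16.1, 14.9 and 14.2 in rES and 5.24, 12 and 14 in ESC. By library, Pfkfb3 was at 24.6, 22.6 and 26.8 CPM in EpiSC, 29.4, 29.7 and 32.4 at D3, 60.1, 60.5 and 62.3 at D5, 71.9, 74.6 and 69.2 at D8, 13.2, 11.6 and 14.3 in rES and 6.6, 6.84 and 6.66 in ESC. Values of Pfkfb4 were 3.26, 3.12 and 3.22 CPM in EpiSC, 23, 29.2 and 30.9 at D3, 32, 31.1 and 27.4 at D5, 25, 16.9 and 17.8 at D8, 2.91, 2.16 and 1.85 in rES and 3.5, 4.83 and 3.53 in ESC. In each of Pfkfb2, Pfkfb3 and Pfkfb4 the D5 libraries lay above those of EpiSC, rES and ESC. At D5 the log2 difference from EpiSC was 3.10 ± 0.24 (adjusted p = 1.29e-09) for Pfkfb2, 1.30 ± 0.09 (adjusted p = 1.37e-10) for Pfkfb3 and 3.22 ± 0.19 (adjusted p = 3.88e-11) for Pfkfb4. Pfkfb3, the isoform with the strongest bias towards synthesis, was lower in ESC than in EpiSC, with a log2 difference of -1.88 ± 0.09 (adjusted p = 2.48e-12). Pfkfb1 averaged 13.9 ± 1.12 CPM in EpiSC, 17.5 ± 1.37 at D3 and 6.52 ± 0.643 in rES. It was not called higher than in EpiSC in any group. Only with the 2 groups fitted alone was its D3 difference, 0.34, called (adjusted p = 0.0232). The summed PFKFB level was 8.35 ± 0.435 CPM per kb in EpiSC, 26 ± 1.08 at D5 and 5.15 ± 0.975 in ESC. The PFKFB sum at D5 thus stood above EpiSC while the phosphofructokinase sum, at 18.5 ± 0.913 CPM per kb, stood below it. Pfkfb2 shares 25.1% of its 50-base stretches with Gm29427. That gene overlaps Pfkfb2 on the same strand over 17.4% of its exons, so part of the counts of Pfkfb2 is uncertain.

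Aldolase splits the 6-carbon sugar, and Aldoa was its main gene in every group, at 97.6 to 99.7% of the summed level per length. Aldoa stood at 1764, 1818 and 2041 CPM in EpiSC, 695, 834 and 862 at D3, 994, 891 and 829.7 at D5, 767, 799 and 916 at D8, 1319, 1293 and 1317 in rES and 982, 983 and 861 in ESC. The EpiSC libraries lay above all others and rES came next. Aldoc, a minor isozyme known from brain, was lower in both naive groups than elsewhere. The Aldoc libraries read 34.2, 33.7 and 41.4 CPM in EpiSC, 13.6, 17.2 and 20.1 at D3, 18.2, 16.5 and 14.4 at D5, 17.5, 15.5 and 18.8 at D8, 4.24, 4.12 and 3.23 in rES and 4.14, 3.36 and 3.35 in ESC. Its log2 difference from EpiSC was -3.32 ± 0.17 (adjusted p = 5.33e-12) in ESC and -1.08 ± 0.15 (adjusted p = 3.75e-06) at D8. Tpi1, triosephosphate isomerase, reached its lowest level in rES. For Tpi1, the 3 libraries of each group gave 639.7, 648 and 722 CPM in EpiSC, 298, 342 and 399.7 at D3, 556, 494 and 472 at D5, 348, 333 and 323 at D8, 148, 139 and 148 in rES and 212, 219.8 and 202 in ESC. Between D3 and D5 its level rose, with a log2 difference of 0.55 ± 0.09 (adjusted p = 3.67e-05).

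The lower steps return ATP, and each of their genes from Gapdh to Pkm had its highest mean in EpiSC. Pgk1, phosphoglycerate kinase, was lower from D3 on. By library, Pgk1 was at 1614, 1624 and 1825 CPM in EpiSC, 440.3, 495 and 558 at D3, 399.6, 367 and 348 at D5, 195, 242 and 245 at D8, 243, 232 and 236 in rES and 249, 242 and 252 in ESC. The EpiSC libraries were above all others, and D8, rES and ESC overlapped. The log2 difference was -1.76 ± 0.09 (adjusted p = 1.58e-11) at D3 and -2.77 ± 0.10 (adjusted p = 4.35e-14) in ESC. Eno1 encodes the main enolase, with 96.7 to 99.1% of the enolase level per length. Values of Eno1 were 1787, 1892 and 1591 CPM in EpiSC, 530.5, 530.4 and 479.8 at D3, 254, 273 and 297 at D5, 262, 301 and 273 at D8, 349, 358 and 356 in rES and 518, 553 and 514 in ESC. It was lowest at D5 and D8, with a log2 difference of -2.68 ± 0.08 (adjusted p = 3.4e-15) at D5 and -1.73 ± 0.08 (adjusted p = 9.1e-13) in ESC. Eno3, the muscle enolase, was a small part of the total. Eno3 stood at 12.8, 11.1 and 15 CPM in EpiSC, 2.38, 1.94 and 3.42 at D3, 0.866, 1.6 and 0.489 at D5, 1.86, 2.26 and 2.11 at D8, 1.14, 0.94 and 0.72 in rES and 3.17, 2.01 and 1.77 in ESC. Its EpiSC libraries also stood above all others. Eno2, the neuronal enolase, averaged 5.54 ± 1.42 CPM in EpiSC and 2.76 or less in the other groups. Pgam1, phosphoglycerate mutase, averaged 986 ± 71 CPM in EpiSC, 280.0 ± 38 at D8 and 679 ± 38.7 in ESC, and Pkm, pyruvate kinase, averaged 4614 ± 279, 1164 ± 69.7 and 1439 ± 40.9. Pkm had the highest level per length of the enzymes in EpiSC, at 923 CPM per kb.

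Several of these genes have near-identical copies, and the way the authors' counting treated reads that match more than 1 gene is not given in the sources used here. Gapdh, the glyceraldehyde 3-phosphate dehydrogenase, is usually among the most abundant transcripts of a cell, yet it was listed at 121 ± 17.3 CPM in EpiSC, or 29.4 CPM per kb, which is below Gpi1. Of the 50-base stretches of its longest coding transcript, 82.5% also occur in another annotated gene, with 222 such genes in all. The share was 72.2% for Eno1, 68.0% for Pgk1, 41.5% for Pgam1, 34.4% for Pkm and 25.3% for Gpi1. Gapdh levels and their differences are therefore uncertain: ESC did not differ from EpiSC beyond the spread (-0.17 ± 0.12, adjusted p = 0.218), and at D8 the log2 difference was -1.17 ± 0.12 (adjusted p = 1.09e-07). Eno1b, a near copy that holds 70.5% of the stretches of Eno1, averaged 436 ± 4.09 CPM in EpiSC, 69.2 ± 2.77 at D5 and 129 ± 13.3 in ESC. The log2 difference of Eno1b in ESC, -1.76 ± 0.10 (adjusted p = 2.08e-11), was close to that of Eno1. Pgk1 shares 67.9% of its stretches with Pgk1-rs7. No such stretch was shared for Hk2, Pfkm, Aldoc, Eno3, Slc2a3, Slc16a1, Slc16a3, Pdk1, Pdk2 or Pdk3.

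**Figure D4:**
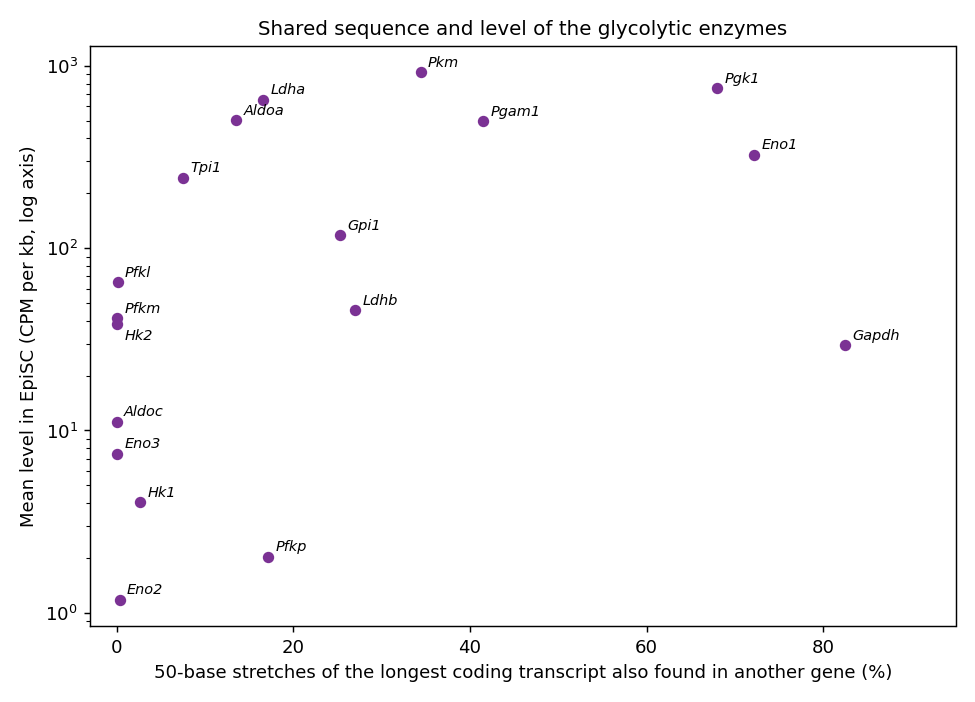
Each point is 1 of 18 glycolytic enzymes, with the percentage of its 50-base stretches also found in another gene on the x axis and its mean level in EpiSC in CPM per kb on a log y axis. Gapdh lies at 82.5% shared and 29.4 CPM per kb, Pgk1 at 68.0% and 752, Eno1 at 72.2% and 327, Pkm at 34.4% and 923, and Pfkm at 0% and 41.5, with high and low levels at both large and small shares.

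At the exit of the pathway the genes of lactate handling shifted between isoforms. Lactate dehydrogenase A, from Ldha at chr7:46841475-46855627 on the plus strand, is the subunit that favours making lactate. The Ldha libraries read 2071, 2184 and 2231 CPM in EpiSC, 655, 747 and 823 at D3, 394, 400.1 and 397 at D5, 299, 377 and 322 at D8, 220.4, 217 and 212 in rES and 442, 451 and 450.0 in ESC. EpiSC stood above all other groups and rES below all. The log2 difference from EpiSC was -1.54 ± 0.08 (adjusted p = 1.43e-11) at D3, -2.70 ± 0.08 (adjusted p = 5.46e-15) at D8, -3.32 ± 0.09 (adjusted p = 9.43e-16) in rES and -2.27 ± 0.08 (adjusted p = 7.77e-14) in ESC. Ldhb, the heart-type subunit that favours pyruvate, went the other way between D3 and D8, and both genes were lower in rES than at D8. For Ldhb, the 3 libraries of each group gave 71.6, 74 and 69.4 CPM in EpiSC, 40.8, 39.4 and 44.6 at D3, 258, 284 and 294 at D5, 497, 455 and 329.6 at D8, 142, 144 and 139 in rES and 138, 150.5 and 152 in ESC. D3 was the lowest group, and D8 the highest, with D8 replicate 3 nearest to D5. The log2 difference from EpiSC was -0.78 ± 0.11 (adjusted p = 4.67e-06) at D3 and 2.58 ± 0.11 (adjusted p = 4.55e-13) at D8. Ldha made up 93.5% ± 0.34 of the lactate dehydrogenase level per length in EpiSC, 89.4% ± 0.86 at D3, 40.4% ± 1.5 at D5, 27.4% ± 4.8 at D8, 42.0% ± 0.4 in rES and 59.1% ± 1.0 in ESC. Ldhb shares 27.0% of its 50-base stretches with Gm5514.

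Lactate leaves through monocarboxylate transporters. Slc16a3 encodes MCT4, known for lactate export from highly glycolytic cells, and had the widest range of the 35 genes. By library, Slc16a3 was at 375, 388 and 492 CPM in EpiSC, 90.6, 109.5 and 125 at D3, 45.6, 43.6 and 43.5 at D5, 139.7, 157 and 145 at D8, 3.29, 3.68 and 5.83 in rES and 2.94, 2.98 and 2.52 in ESC. The highest library of rES or ESC was at 5.83 CPM, whereas the lowest library elsewhere was at 43.5 CPM. Its log2 difference from EpiSC was -3.24 ± 0.17 (adjusted p = 3.98e-12) at D5, -1.51 ± 0.15 (adjusted p = 6.15e-08) at D8 and -7.21 ± 0.20 (adjusted p = 3.17e-15) in ESC. D8 stood above D5 with a log2 difference of 1.73 ± 0.16, and from D8 to rES the level went down 34.5-fold. Slc16a1 encodes MCT1, the widespread transporter that works in both directions. Values of Slc16a1 were 229, 223 and 221 CPM in EpiSC, 216, 206 and 201 at D3, 338, 350.3 and 357 at D5, 689, 631 and 547 at D8, 204, 194 and 204 in rES and 214, 207 and 239 in ESC. The D5 and D8 libraries lay above those of the other 4 groups, with log2 differences of 0.63 ± 0.07 (adjusted p = 4.22e-07) and 1.47 ± 0.08 (adjusted p = 4e-12). In ESC the difference from EpiSC was -0.03 ± 0.07 (adjusted p = 0.741). Slc16a3 made up 60.6% of the per-length level of both transporters in EpiSC and 1.1% in ESC.

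**Figure D5:**
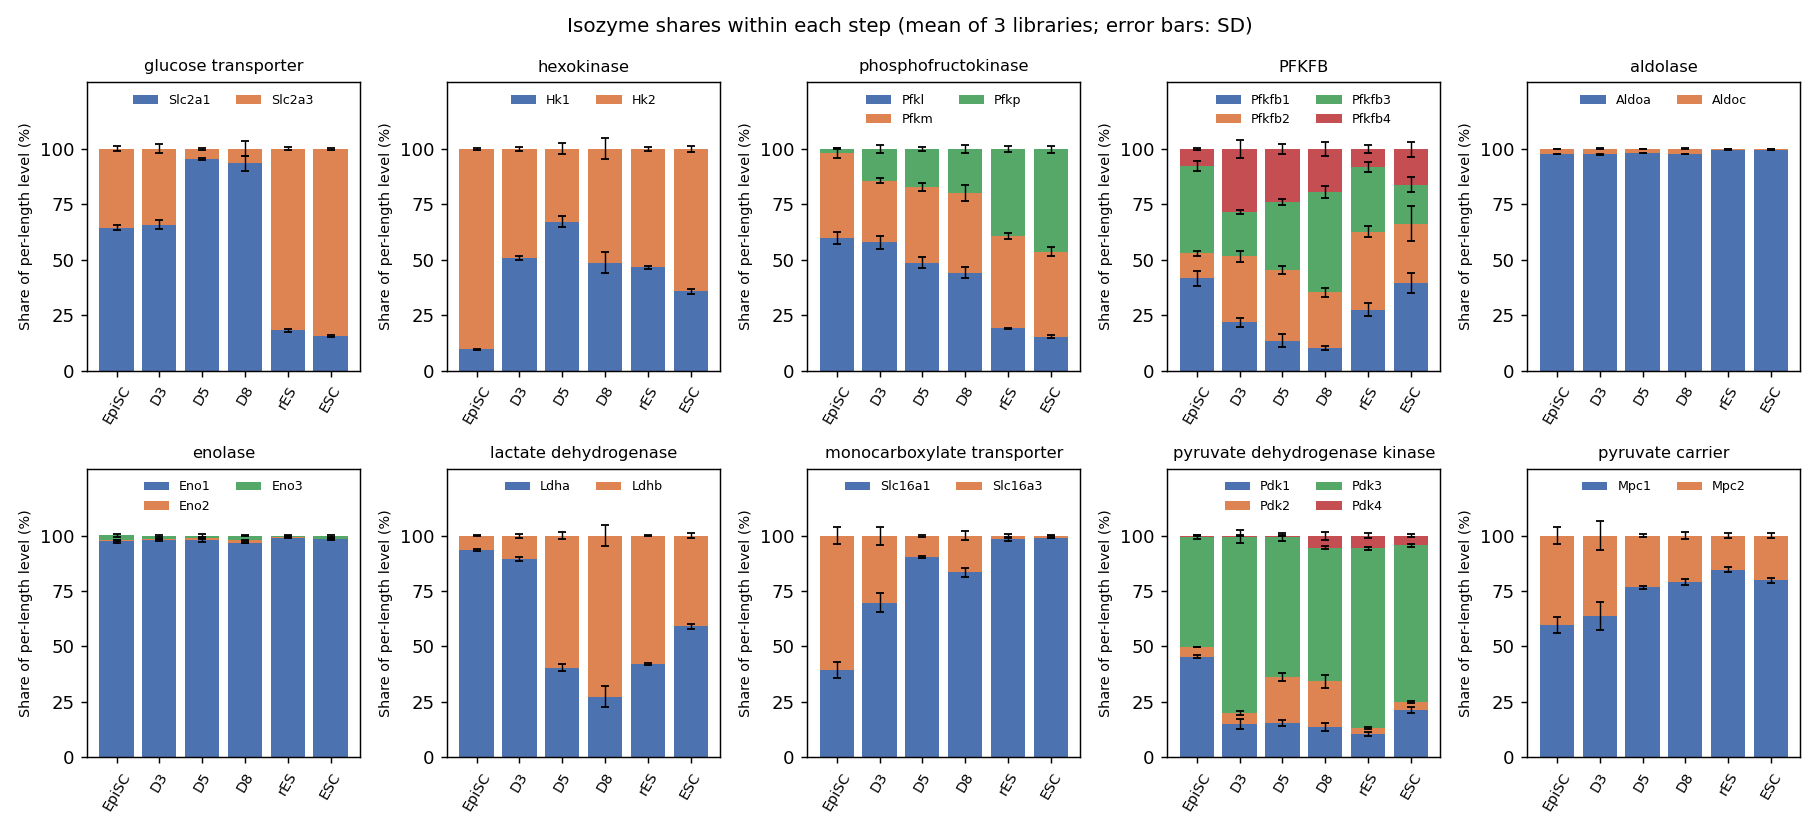
Bars show the mean share of each isozyme, in percent of the summed level per length within a step, for 10 steps and 6 groups, and error bars are the SD of 3 libraries. The Pfkl share is smaller and the Pfkp share larger in rES and ESC than in EpiSC, the Ldhb share is larger from D5, and Slc16a1 leads Slc16a3 in every group but EpiSC.

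These shares are given as a description and were not tested. They depend on the exon length used: the leading isozyme of a step was the same in 95 of 120 combinations of step, group and other length setting. Depending on the setting, Slc2a1 or Slc2a3 led in EpiSC and D3, and Hk1 or Hk2 at D8, in rES and in ESC. Likewise Pfkm or Pfkp led in rES, and Ldha or Ldhb at D5 and in rES. Pdk1 or Pdk3 led in EpiSC, and Mpc1 or Mpc2 in EpiSC, D3 and D5. The PFKFB lead varied in EpiSC, D5, rES and ESC. No change occurred for aldolase and enolase, each with a dominant gene, or for the monocarboxylate transporters.

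Pyruvate that is kept meets the PDK kinases, which switch pyruvate dehydrogenase off. Pdk1, a kinase known as a target of the hypoxia factor HIF1, was highest in EpiSC. Pdk1 stood at 130.2, 127 and 125 CPM in EpiSC, 26.3, 25.7 and 27.9 at D3, 27.2, 29.3 and 29.9 at D5, 17.9, 23.6 and 22.9 at D8, 24.3, 23.5 and 26.2 in rES and 54.9, 59 and 63.7 in ESC. EpiSC stood above all others and ESC came second. The log2 difference from EpiSC was -2.57 ± 0.10 (adjusted p = 5.95e-14) at D8 and -1.10 ± 0.09 (adjusted p = 6.17e-09) in ESC. Pdk2, the broadly expressed kinase, was raised at D5 and D8. The Pdk2 libraries read 5.3, 4.94 and 4.92 CPM in EpiSC, 2.85, 3.82 and 3.76 at D3, 17.6, 15.2 and 14.9 at D5, 14.9, 13.8 and 11.1 at D8, 3.05, 2.06 and 2.33 in rES and 4.77, 3.9 and 4.05 in ESC. The D5 and D8 libraries were above all others, with a log2 difference of 1.65 ± 0.17 (adjusted p = 1.01e-07) at D5. Pdk3 had the highest mean level per length of the kinases in all 6 groups, though not in EpiSC when other lengths were used. For Pdk3, the 3 libraries of each group gave 45.7, 47.8 and 44.2 CPM in EpiSC, 51.9, 48.3 and 39.7 at D3, 40.0, 35.5 and 41.9 at D5, 30.6, 33.1 and 29.8 at D8, 65.8, 61.6 and 61.2 in rES and 64.7, 61.7 and 67.5 in ESC. Its groups lay closer together, with a log2 difference of 0.49 ± 0.09 (adjusted p = 0.000117) in ESC and -0.56 ± 0.09 (adjusted p = 2.51e-05) at D8. Pdk4, the kinase known from fasting and fat oxidation, averaged 0.618 ± 0.119 CPM in EpiSC, 3.84 ± 1.05 at D8, 6 ± 1.05 in rES and 5.61 ± 1.01 in ESC, with a log2 difference of 3.12 ± 0.41 (adjusted p = 2.77e-06) in ESC.

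The 3 genes of the complex that the kinases act on varied less between groups than Pdk1, Pdk2 and Pdk4, but not all less than Pdk3. The highest group mean was 1.93, 2.31 and 2.43 times the lowest for Pdha1, Pdhb and Dlat, beside 2.07 for Pdk3. Pdha1, the catalytic alpha subunit of the complex, averaged 195 ± 5.01 CPM in EpiSC, 152 ± 4.21 at D3, 238 ± 8.12 at D8 and 294 ± 5.71 in ESC. It shares 16.5% of its stretches with Map3k15 on the opposite strand. Pdhb, the beta subunit, averaged 196 ± 9.5 CPM in EpiSC, 102 ± 9.78 at D3 and 192 ± 13.9 in ESC. It shares 30.3% of its stretches with Gm6123, so part of its counts is uncertain. Dlat, the acetyltransferase core, averaged 145 ± 3.99 CPM in EpiSC and 131 ± 2.98 in ESC, with 93 ± 4.94 at D3 and 226 ± 10.8 at D5. All 3 were lower at D3 than in EpiSC, with log2 differences of -0.36 ± 0.05, -0.95 ± 0.10 and -0.64 ± 0.06. The small Dlat difference in ESC, -0.15 ± 0.06 (adjusted p = 0.0414), was lost under RLE scaling (adjusted p = 0.642) and without any 1 of the 6 libraries, and that of Pdhb at D8, 0.26 ± 0.10 (adjusted p = 0.0288), was lost when the 2 groups were fitted alone (adjusted p = 0.0667) and without D8 replicate 1 or 2 or EpiSC replicate 1 or 3.

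The genes of the mitochondrial pyruvate carrier rose in all 5 comparisons with EpiSC. Its 2 subunits, Mpc1 and Mpc2, are both needed to bring pyruvate across the inner membrane. By library, Mpc1 was at 2.44, 3.85 and 3.57 CPM in EpiSC, 12.3, 11.8 and 9.11 at D3, 49.3, 53.5 and 51.9 at D5, 60.3, 60.3 and 43.1 at D8, 21.3, 21.1 and 20.8 in rES and 17, 16.8 and 18.2 in ESC. Values of Mpc2 were 6.7, 7.76 and 8.81 CPM in EpiSC, 19.4, 21.8 and 24.6 at D3, 55, 57.6 and 53.1 at D5, 57.9, 50.4 and 42.5 at D8, 12.6, 14.4 and 13.4 in rES and 14.6, 16.1 and 15.5 in ESC. In both genes the EpiSC libraries lay below every other library, and D5 and D8 lay above the rest. Mpc1 differed from EpiSC by 4.04 ± 0.17 (adjusted p = 2.41e-13) at D8 and 2.39 ± 0.16 (adjusted p = 3.34e-10) in ESC, and Mpc2 by 2.69 ± 0.13 (adjusted p = 1.32e-12) and 0.99 ± 0.12 (adjusted p = 1.35e-06). The summed carrier level was 2.63 ± 0.477 CPM per kb in EpiSC, 8.3 ± 0.509 at D3, 33 ± 5.72 at D8 and 10.4 ± 0.377 in ESC. Mpc1 overlaps 4930506C21Rik on the opposite strand over 23.1% of its exons and shares 29.6% of its stretches with other genes, so its counts are less certain than those of Mpc2, which shares none.

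Along the conversion, D3 to D5 brought 11 of the 35 genes up and 13 down, with 59.5% of all genes called, 29.9% up and 29.6% down. D5 to D8 brought 11 up and 11 down, with 47.1% called, 25.1% up and 22% down. From D8 to rES 13 were higher and 18 lower, with 71.1% of all genes called, 32.7% higher and 38.4% lower. In that last interval Slc2a1, Slc16a3 and Slc16a1 were lower, and so were, with their log2 differences, Pfkfb3 (-2.46 ± 0.09), Pfkfb4 (-3.09 ± 0.19), Pdk2 (-2.40 ± 0.18) and Mpc2 (-1.90 ± 0.12), while Slc2a3 (1.53 ± 0.13), Hk2 (1.37 ± 0.13) and Pfkp (1.53 ± 0.11) were higher in rES. The fibroblast marker sum went down from 1286 to 5.73 CPM and the trophoblast marker sum from 725 to 180 CPM over the same interval, and their part in these differences was not tested.

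The question of how close the converted cells came to the reference was addressed by comparing rES with ESC. Of the 35 genes, 4 were higher and 10 lower in rES, with 33.5% of all genes called, 15.6% higher and 17.9% lower. The number higher became 7 when these 2 groups were fitted alone. The largest differences among genes with at least 10 CPM were in Pdk1, -1.26 ± 0.09 (adjusted p = 2.48e-08), Ldha, -1.05 ± 0.08 (adjusted p = 4.14e-08), and Pfkfb3, 0.96 ± 0.09 (adjusted p = 3.22e-07). Hk1 was higher in rES, with a log2 difference of 0.67 ± 0.12, and Tpi1 lower, at -0.54 ± 0.09. Slc2a1, Hk2, Pgk1, Pkm and Ldhb did not differ beyond the spread, with log2 differences of -0.14 ± 0.12, 0.03 ± 0.13, -0.06 ± 0.09, 0.04 ± 0.09 and -0.05 ± 0.11. Slc16a3 was called higher in rES at 0.60 ± 0.18, but without rES replicate 3 the difference was 0.31 and the call was lost (adjusted p = 0.145), as it was without ESC replicate 3 (adjusted p = 0.0709). Slc2a3, called lower at -0.40 ± 0.13, also lost its call without ESC replicate 2 or 3 or any 1 rES library, with adjusted p of 0.0518 to 0.0744. The fibroblast marker sum was 140.7 CPM in ESC and 5.73 CPM in rES, with 6 of its 7 genes called at least 2-fold lower in rES, and the trophoblast sum was 106 and 180 CPM. Their part in these differences was not tested.

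The bases just upstream of the start sites are shown for a glucose transporter gene, Slc2a1, the lactate dehydrogenase and lactate transporter pairs, and Pgk1, an enzyme gene lower in all 5 comparisons, 6 genes chosen after their values were seen. They come from RefSeq promoter windows on GRCm38.p6. The 250 bases before the start were searched for ACGTG, a form of the core of the hypoxia response element. Both strands were searched, so that CACGT counts as a match. The E-box CACGTG contains both ACGTG and CACGT. The form GCGTG, which reads CACGC on the other strand, was neither searched for nor marked. The printed Ldhb and Slc16a1 windows hold GCGTG, and the printed Slc16a1 and Slc2a1 windows hold CACGC. Capitals mark every ACGTG or CACGT, each sequence runs 5′ to 3′ on the strand of the gene, and the windows are chr7:46845554-46845803 for Ldha, chr6:142507958-142508207 for Ldhb, chr11:120948817-120949066 for Slc16a3, chr3:104638414-104638663 for Slc16a1, chrX:106186850-106187099 for Pgk1 and chr4:119108495-119108744 for Slc2a1.
Ldha: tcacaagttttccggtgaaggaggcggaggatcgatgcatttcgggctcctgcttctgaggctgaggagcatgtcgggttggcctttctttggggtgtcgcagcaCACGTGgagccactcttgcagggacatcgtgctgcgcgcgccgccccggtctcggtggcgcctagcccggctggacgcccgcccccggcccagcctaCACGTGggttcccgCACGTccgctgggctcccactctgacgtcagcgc
Ldhb: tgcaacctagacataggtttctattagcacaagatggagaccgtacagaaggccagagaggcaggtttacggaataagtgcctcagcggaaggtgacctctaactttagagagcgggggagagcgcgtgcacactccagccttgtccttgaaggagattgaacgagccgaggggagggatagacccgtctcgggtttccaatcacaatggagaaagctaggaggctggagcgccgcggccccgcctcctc
Slc16a3: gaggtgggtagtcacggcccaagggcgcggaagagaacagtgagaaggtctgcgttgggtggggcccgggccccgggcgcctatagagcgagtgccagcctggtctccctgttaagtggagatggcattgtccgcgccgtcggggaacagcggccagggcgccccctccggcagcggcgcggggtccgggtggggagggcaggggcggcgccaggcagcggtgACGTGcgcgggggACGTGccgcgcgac
Slc16a1: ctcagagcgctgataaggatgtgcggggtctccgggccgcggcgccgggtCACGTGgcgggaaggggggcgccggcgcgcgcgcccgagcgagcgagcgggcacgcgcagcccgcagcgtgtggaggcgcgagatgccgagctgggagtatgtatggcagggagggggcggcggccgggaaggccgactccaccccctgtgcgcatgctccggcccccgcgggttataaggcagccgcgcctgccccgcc
Pgk1: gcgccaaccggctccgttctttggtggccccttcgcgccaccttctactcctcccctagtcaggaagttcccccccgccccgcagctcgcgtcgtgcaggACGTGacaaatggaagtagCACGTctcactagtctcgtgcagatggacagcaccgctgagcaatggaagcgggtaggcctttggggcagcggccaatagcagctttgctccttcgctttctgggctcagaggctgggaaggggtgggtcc
Slc2a1: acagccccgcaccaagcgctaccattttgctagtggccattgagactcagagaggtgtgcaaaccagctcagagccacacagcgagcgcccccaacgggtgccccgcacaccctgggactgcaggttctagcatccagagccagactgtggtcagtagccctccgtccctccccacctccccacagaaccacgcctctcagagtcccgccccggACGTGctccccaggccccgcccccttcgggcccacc

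The printed Ldha window holds 3 marked stretches, while a second RefSeq window of Ldha, chr7:46846832-46847081, holds none. Those of Slc16a3 and Pgk1 hold 2 each. Slc16a1 and Slc2a1 have 1 each and Ldhb has none. The 34 genes other than Slc2a3 had 54 windows, and a gene was counted if any of its windows held the motif. ACGTG on either strand was present for 15 of the 34, or 44.1%, against 18.5% of all 27025 genes with a window and 23.3% of the 13617 of them tested here. The E-box CACGTG was present for 6 of the 34, or 17.6%, against 6.86% of all genes and 9.27% of those tested. The count by gene grows with the number of windows a gene has, and all 27025 genes had 32851 windows. By window, ACGTG was present in 35.2% of the 54, against 16.6% of all windows. CACGTG was present in 11.1%, against 6.02%. Some windows of the same gene overlap, such as 2 of Aldoa. These are counts of letters and say nothing about binding.

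Other genes of glucose and pyruvate metabolism, a list of 53 of which 48 were tested, divided more evenly, close to the shares of all genes. In ESC 17 were higher and 16 lower than in EpiSC, at D3 15 and 16, at D5 17 and 17, at D8 22 and 15, and in rES 14 and 17. The shares higher and lower were 35.4% and 33.3% in ESC, 31.2% and 33.3% at D3 and 35.4% each at D5. They were 45.8% and 31.2% at D8 and 29.2% and 35.4% in rES. Over all genes they were 31.2% and 36.1%, 34.1% and 30.2%, 37.7% and 34.3%, 42.4% and 34.5%, and 31.9% and 37.5% in the same order. The median log2 difference of the listed genes was 0.01, 0.00, 0.02, 0.37 and -0.04 in the same order, beside -0.07, 0.00, 0.02, 0.18 and -0.09 over all genes. Fbp2, a fructose bisphosphatase that opposes phosphofructokinase, averaged 0.0208 CPM in EpiSC, 17.6 at D3, 8.27 at D5, 5.07 at D8 and 5.97 in ESC. Pck2, the mitochondrial PEP carboxykinase, averaged 120.0 CPM in EpiSC and 14.6 at D3. Emb, which encodes embigin, a partner of monocarboxylate transporters, averaged 369 CPM in EpiSC, 51.5 in ESC and 27.6 in rES. Bsg encodes basigin, the partner of MCT1 and MCT4, and averaged 2275 CPM at D8 and 367 in rES, a log2 difference of -2.63 ± 0.08 (adjusted p = 7.03e-15). Pcx, pyruvate carboxylase, averaged 25.3 CPM at D3, 80.7 at D5, 186 at D8 and 38.8 in rES. Pdp1, the phosphatase that reactivates pyruvate dehydrogenase, averaged 20.1 CPM in EpiSC and 1.73 at D5.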

How the data were processed

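RNA was measured in 18 libraries of mouse cells, 3 per group, with groups taken from the labels. Per the labels' protocols, ribosomal RNA was removed with probes and RNase H and strand-marking libraries were made. The submitters' processing notes name Trim Galore for trimming and HISAT2 for alignment, on mm10 and with no version. What the authors deposited is a table of expected counts per gene symbol, all of them whole numbers. How reads were assigned to genes, with which annotation and whether by strand, is not given in the sources used here. Counts of 4 are over-represented, with 314.5 genes at 4 against 157 at 3 and 105.5 at 5 in the median library. For counts of 7, 8 and 9 the numbers were 152.5, 163 and 109 genes.

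The counts were fitted with edgeR 4.0.16 in R 4.3.3, all 18 libraries in 1 model without covariates, after filterByExpr (17545 of 25239 symbols) and TMM scaling. Each of 9 comparisons used the quasi-likelihood F test with Benjamini-Hochberg adjustment over all tested genes and a threshold of 0.05. Log2 values used a prior count of 2, and each standard error is the size of the difference over the root of its F value. The common biological coefficient of variation was 0.167. The steps were tested on simulated data. Levels per length used the exon union of each gene in GENCODE vM21 (mm10). A share is the level per length of 1 isozyme over the sum of its step.

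The 35 genes and the other lists were chosen with earlier results of these data known. Values by library are printed for members whose highest group mean is at least 10 CPM and at least 4 times the lowest, and for the leading isozyme of each step. Other genes are named from lists, up to 3 per list and comparison, as those called with at least 5 CPM in a compared group and the largest log2 difference. Alternatives were RLE scaling, no filter, DESeq2 1.42.0, counts divided by 4, the 2 groups fitted alone, a replicate block, other lengths, and leaving out each library. No library was left out of the main values. Depth was 58.4 to 101.6 M counts per library, and counting error is widest for the genes under 5 CPM.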

Additional observations from a re-analysis of the deposited data

How the results depend on the processing

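None of the 315 member and comparison pairs reversed. Of the 245 called, 12 lost the call under an alternative other than leaving out a library, and 20 lost it under any. Of the pairs not called, 21 gained a call under some alternative, leaving out a library included. The member counts per comparison stayed within 1.5 times except the number higher in rES than in ESC, which was 4 and became 7 with these 2 groups fitted alone; the cause was not tested. The balance of calls over all genes turned with RLE scaling, from 5472 higher and 6330 lower to 6058 and 5678 in ESC against EpiSC, from 5590 and 6585 to 6327 and 5762 in rES against EpiSC, and from 2736 and 3141 to 3103 and 2835 in rES against ESC, and also with DESeq2; with RLE scaling the members were 10 higher and 18 lower, 10 and 19, and 4 and 10. Replicate numbers do not pair the libraries: residuals of libraries with the same number correlated at -0.061 to 0.053 (median -7.3e-05, 45 pairs), and 7 of 18 libraries were most like one of their own number. With the replicate block, 11584 genes were called between ESC and EpiSC against 11802 without it, and 2 member calls changed over the 9 comparisons.

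Isozyme shares depend on exon length by construction. The change from EpiSC to ESC in percentage points, first as reported, then from CPM without length and then with the longest coding transcript, was -48.8, -38.5 and -41.8 for Slc2a1, -26.1, -31.1 and -34.3 for Hk2, -44.5, -60.3 and -55.6 for Pfkl, and -34.3, -21.5 and -26.9 for Ldha. It was -59.5, -63.6 and -64.0 for Slc16a3, 20.9, 22.7 and 22.7 for Pdk3, 20.3, 23.4 and 23.7 for Mpc1, 1.7, 1.5 and 0.9 for Aldoa and 1.2, 0.5 and 0.5 for Eno1. The longest-transcript length was added after seeing the data. Genes under about 5 CPM, such as Eno2, Eno3 and Pdk4, have the widest errors.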

Other observations

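Genes of the pentose phosphate pathway, which branches off at glucose 6-phosphate, were more often higher than lower in the naive groups and at D8. Of 10 genes, 7 were higher and 2 lower in ESC than in EpiSC, 7 and 3 in rES, and 6 and 3 at D8. Of all genes, 31.2% were higher and 36.1% lower in ESC, 31.9% and 37.5% in rES, and 42.4% and 34.5% at D8. At D3 the counts were 2 and 3, beside 34.1% and 30.2% of all genes. At D5 they were 4 and 4, beside 37.7% and 34.3%. The median log2 difference of the 10 genes was 0.52 in ESC, 0.93 in rES and 0.92 at D8. Over all genes it was -0.07, -0.09 and 0.18. Pgd, which makes NADPH in the oxidative branch, averaged 102 CPM in EpiSC and 241 in ESC, and H6pd, which acts at the start of the pathway inside the endoplasmic reticulum, 8.02 and 24.2. Rpia, ribose 5-phosphate isomerase, averaged 9.09 CPM in EpiSC, 82.4 at D5, 88.2 at D8 and 15.7 in rES, with D5 and D8 highest, as for Slc2a1. Tkt, transketolase, averaged 806 CPM in EpiSC, 476 at D3, 328 at D5 and 311 at D8.

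The 24 genes of the HIF pathway and hypoxia response were counted in the same way. In ESC 6 were higher and 12 lower than in EpiSC, in rES 7 and 12, at D3 8 and 10, at D5 11 and 11, and at D8 14 and 5. Of all genes, 31.2% were higher and 36.1% lower in ESC, 31.9% and 37.5% in rES, 34.1% and 30.2% at D3, 37.7% and 34.3% at D5, and 42.4% and 34.5% at D8, so that the list's 25% and 50% in ESC and 58.3% and 20.8% at D8 lay further from these than its 33.3% and 41.7% at D3. Their median log2 difference was -0.54 in ESC, -0.75 in rES and 0.54 at D8, beside -0.07, -0.09 and 0.18 over all genes. Bnip3, a mitophagy receptor, averaged 136 CPM in EpiSC, 14.2 at D3, 77.5 at D5, 187 at D8, 13.8 in rES and 8.53 in ESC. Ndrg1, a stress-responsive gene, averaged 37.8 CPM in EpiSC, 580 at D5, 1044 at D8 and 34.4 in rES, and Epas1, which encodes HIF2 alpha, 6.79, 54.9 and 204 in EpiSC, D5 and D8. Hif3a averaged 30.1 CPM in EpiSC and 1.19 at D8. The fibroblast marker sum was also highest at D8, at 1286 CPM, and its part in these values was not tested.

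Of 14 tested genes of the MYC family and its regulators, 4 were higher and 7 lower in ESC than in EpiSC, with a median log2 difference of -0.42, and 6 were higher and 6 lower in rES, with a median of -0.03. These shares, 28.6% and 50% in ESC and 42.9% each way in rES, stand beside 31.2% and 36.1% and beside 31.9% and 37.5% of all genes, whose medians were -0.07 and -0.09. Myc itself averaged 96.3 CPM in EpiSC, 19.7 at D8, 2.31 in rES and 10.6 in ESC. Lin28a and Lin28b, RNA-binding proteins known to act on let-7 and on metabolic genes, averaged 765 and 168.5 CPM in EpiSC and 37.5 and 17.9 in ESC.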
